A study of Homo sapiens with 18 samples.

Results

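The data describe 9 genes of the epithelial-mesenchymal transition (EMT) in PNT1A cells after irradiation in a quasi-humanoid phantom. PNT1A is an established line of human prostate epithelial cells, normal in origin and immortalised with SV40. The genes are the transcription factors SNAI1, SNAI2, ZEB1, ZEB2 and TWIST1 and the junction and filament genes CDH1, CDH2, VIM and EPCAM. They were chosen by symbol: each of the 9 has exactly 1 probe set with a single symbol in the array annotation, among 22392 genes measured in this way. Expression was measured on 18 Affymetrix Human Gene arrays in 6 groups of 3 biological repeats. Cells in the axis of the beam, at the prostate location, received 70 Gy in 7 consecutive fractions of 10 Gy. Flasks at the intestine, lung, thyroid and brain locations lay 15, 35, 52 and 74 cm from the axial plane and received scattered radiation. Control cells were sham-irradiated, kept in buffer at room temperature outside the beam, and are called untreated in the sample labels. In every group the cells were the same prostate line in the same kind of flask, so the intestine, lung, thyroid and brain names stand for positions and not for tissues. The cells were replated after irradiation and cultured for 24 h before RNA was isolated. All values are log2 intensities normalised by the authors with RMA (robust multiarray average). Each probe set has its own scale, so levels are compared between groups for 1 gene. The only setting of one probe set against others is a rough mark of brightness, given with the miR-200 transcripts.

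In the epithelial-mesenchymal transition, cells give up cell-cell junctions and take on a motile form. Its best known regulators are zinc finger and helix-loop-helix factors that bind E-boxes, short DNA motifs, and repress genes of epithelial junctions. E-cadherin, encoded by CDH1, is their classical target, and a switch of cadherins towards N-cadherin (CDH2), with more vimentin (VIM), is the usual description of the mesenchymal state. Members of the miR-200 family pair with ZEB1 and ZEB2 transcripts and keep both factors low in epithelial cells.

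The miR-200 sequences are shown because the family falls into 2 groups by its seed. Capitals mark the seed (bases 2 to 8), and the sequences are from RefSeq (GRCh38.p14).
hsa-miR-200b-3p: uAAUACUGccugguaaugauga
hsa-miR-200c-3p: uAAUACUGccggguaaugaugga
hsa-miR-429: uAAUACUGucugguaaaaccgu
hsa-miR-141-3p: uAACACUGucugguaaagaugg
hsa-miR-200a-3p: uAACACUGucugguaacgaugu
The first 3 share 1 seed and the other 2 share another. The arrays carry a probe set for each of the 5 microRNA genes MIR200A, MIR200B, MIR200C, MIR141 and MIR429. None of them was called in any comparison, and all 5 means over the 18 arrays (2.69 to 3.17) lay under 3.74, the 95th percentile of the means of 358 olfactory receptor genes, which are little expressed in cultured epithelium. A probe set under that mark is called dim here. For a called gene, a fold change against a group where it was dim is given as a bound, taken against the mark ("at least"). None is given where a called gene was dim in both groups. Mature miRNAs were not measured separately.

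The promoter windows of ZEB1, CDH2 and VIM are shown because these genes encode an E-box binding factor and 2 proteins of the mesenchymal state. They run from 250 bases before to 50 bases after a RefSeq start site (GRCh38.p14), and capitals mark the E-box CAGGTG, searched on both strands (CACCTG on the strand shown).
ZEB1, chr10:31318966-31319265, plus strand: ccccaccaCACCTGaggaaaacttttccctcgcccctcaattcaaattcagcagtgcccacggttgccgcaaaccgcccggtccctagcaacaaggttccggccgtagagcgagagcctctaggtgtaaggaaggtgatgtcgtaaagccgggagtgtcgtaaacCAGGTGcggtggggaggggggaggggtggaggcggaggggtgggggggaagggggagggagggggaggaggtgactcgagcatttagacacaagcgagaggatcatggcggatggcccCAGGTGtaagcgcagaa
CDH2, chr18:28177081-28177380, minus strand: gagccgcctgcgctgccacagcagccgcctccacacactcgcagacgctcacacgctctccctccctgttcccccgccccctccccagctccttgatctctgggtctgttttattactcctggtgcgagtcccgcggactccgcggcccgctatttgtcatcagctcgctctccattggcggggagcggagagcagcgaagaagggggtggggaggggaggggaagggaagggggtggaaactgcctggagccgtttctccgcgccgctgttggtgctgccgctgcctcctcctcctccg
VIM, chr10:17227991-17228290, plus strand: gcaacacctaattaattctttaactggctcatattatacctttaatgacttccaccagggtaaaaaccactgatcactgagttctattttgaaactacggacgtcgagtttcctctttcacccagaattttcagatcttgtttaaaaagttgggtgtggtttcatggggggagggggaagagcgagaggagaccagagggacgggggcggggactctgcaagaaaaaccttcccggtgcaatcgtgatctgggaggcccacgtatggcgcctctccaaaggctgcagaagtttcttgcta
The ZEB1 window holds 3 E-boxes. It is 1 of 7 windows listed for ZEB1, of which 2 hold an E-box. The windows of CDH2, VIM and ZEB2 hold none. Over all 35116 windows of this length 20.6% hold at least 1 E-box, and a match is a description of letters only. The sequence table was matched by symbol and holds windows for 4 of the 9 genes.

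The medians of the 18 arrays ran between 4.07 and 4.22. The values had been normalised across arrays, so these medians do not measure array quality. Replicates within a group correlated at 0.9918 or more. The p53 targets CDKN1A and MDM2, read as a check of the irradiated label, were at 7.88 to 8.01 and 10.34 to 10.50 on the axis arrays and at 6.06 to 6.43 and 8.24 to 8.60 on the 15 other arrays. Of 8 measured basal epithelial markers 7 were above the brightness mark (KRT14 was dim), and of 7 luminal markers 5 were (TMPRSS2 and ACP3 were dim). None of 5 endothelial markers was above the mark, and of 6 leukocyte markers 2 were. Of 8 stromal markers 4 were above it, COL1A1 and PDGFRB among them, while DCN, LUM, DPT and C7 were dim.

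SNAI2 rose in the axis cells and CDH2 fell, and these were the only members called, that is, with a limma p below 0.05 after Benjamini-Hochberg adjustment over 22392 genes together with more than a 1.5-fold difference. Of the 9 members 1 was higher and 1 lower, where 4.39% of all genes were called higher and 2.60% lower. The other 7 members had log2 fold changes against control between -0.33 and 0.12, and 6 of these were below 0. Of all 22392 genes, 10791 were below 0. In whole cultures, fewer cells that express a gene and less of its RNA per cell cannot be told apart.

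SNAI2 encodes Slug, a zinc finger repressor of the Snail family, known in mouse blood progenitors for protecting irradiated cells from apoptosis. Its log2 intensity was 9.03, 9.08 and 9.23 on the axis arrays, against 6.44, 6.66 and 6.70 on the control arrays. All 3 axis arrays lay above all 15 other arrays, by a gap of 2.33 to the nearest of them, while those 15 arrays spanned 0.43. Of all genes 11.7% had their axis arrays above all others, and 7.51% had them below. Group means were 9.11 ± 0.10 in the axis and 6.60 ± 0.14 in controls (SD, n = 3 each), a 5.71-fold rise (log2 fold change 2.51 with a standard error of 0.10, adjusted p = 4.42e-12 from limma). By log2 fold change SNAI2 ranked 21 among 22392 genes. The intestine, lung, thyroid and brain means were 6.55, 6.51, 6.46 and 6.51, and neighbours in the order of these 4 groups and controls overlapped. Against the mean of the 4 peripheral locations SNAI2 was 6.09-fold higher in the axis (log2 fold change 2.61 with a standard error of 0.082, adjusted p = 4.19e-14).

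SNAI1 encodes Snail, the closest relative of Slug among the 9 genes and a direct repressor of CDH1. It had log2 intensities of 5.45, 5.49 and 5.39 on the axis arrays, against 5.60, 5.77 and 5.75 on the control arrays. The axis arrays were below all 3 controls, as was so for 15.7% of all genes, and SNAI1 lay on the other side of controls from SNAI2. The difference did not pass the test (log2 fold change -0.26, 95% confidence interval -0.47 to -0.054, adjusted p = 0.0729 from limma). Against the peripheral locations the log2 fold change was -0.20 (adjusted p = 0.0672). The lowest thyroid array (5.46) lay within the axis range, so the axis arrays overlapped with the peripheral ones.

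ZEB1 and ZEB2 encode paralogous zinc finger homeobox repressors. ZEB1 was at 4.70, 4.86 and 4.69 on the axis arrays, against 5.01, 4.94 and 4.96 on the control arrays. All 3 axis values lay below the 15 others, with a gap of 0.028 to the lowest of them, an intestine array. The log2 fold change of ZEB1 was -0.22 against control (95% confidence interval -0.42 to -0.019, adjusted p = 0.129) and -0.30 against the 4 peripheral locations (-0.46 to -0.14, adjusted p = 0.00460). The second passed the adjusted p but not the fold threshold. ZEB2 was at 4.23, 4.29 and 4.16 on the axis arrays, against 4.53, 4.35 and 4.36 on the control arrays. Its log2 fold change was -0.19 against control (95% confidence interval -0.33 to -0.046, adjusted p = 0.0580) and -0.16 against the peripheral locations (adjusted p = 0.0360). The ZEB2 axis arrays overlapped with the intestine arrays, which were at 4.28, 4.26 and 4.35.

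TWIST1, a basic helix-loop-helix factor active in the neural crest and mesoderm, was the only dim member, with a mean of 3.41 over all arrays. Its log2 intensity was 3.29, 3.11 and 3.10 on the axis arrays, against 3.63, 3.42 and 3.44 on the control arrays. The log2 fold change of -0.33 passed the adjusted p but not the fold threshold (95% confidence interval -0.51 to -0.15, adjusted p = 0.00854 from limma). Both group means, 3.17 in the axis and 3.50 in controls, were under the brightness mark, where a small change could not be told from background. Control replicate 1 was the highest TWIST1 array of all 18, and without it the adjusted p was 0.0604.

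**Figure D1:**
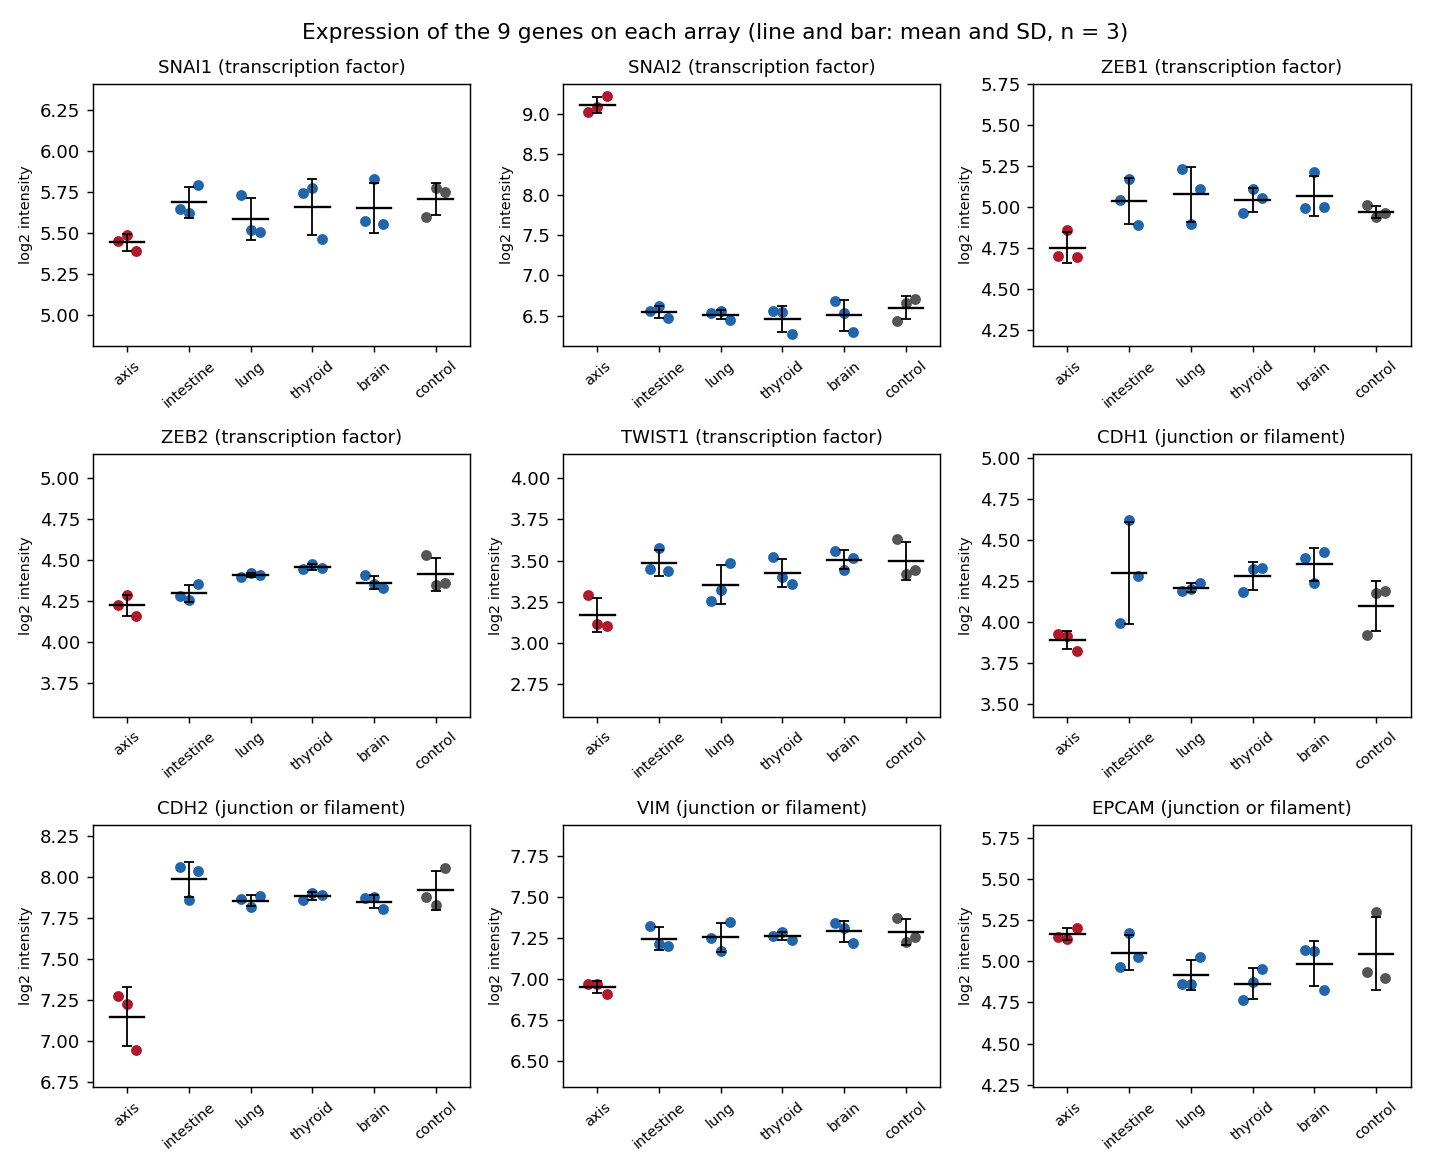
Log2 intensity of the 9 genes on each of the 18 arrays, with axis in red, the 4 peripheral locations in blue and control in grey; each panel has its own axis, with a wider span for SNAI2, lines are group means and bars are SDs (n = 3). The axis arrays lie at least 2.33 above all others for SNAI2 and at least 0.53 below all others for CDH2.

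CDH2 encodes N-cadherin, the calcium-dependent adhesion molecule of neural and mesenchymal cells. It was at 7.28, 7.23 and 6.94 on the axis arrays, against 7.88, 7.83 and 8.05 on the control arrays. All 3 axis values lay below the 15 others by a gap of 0.53, and the 15 others spanned 0.25. Means were 7.15 ± 0.18 in the axis and 7.92 ± 0.12 in controls (SD, n = 3 each). CDH2 was 1.71-fold lower (log2 fold change -0.77 with a standard error of 0.088, adjusted p = 2.30e-06 from limma). The 95% confidence interval of the log2 fold change ran between -0.96 and -0.59, and CDH2 was not called when limma's treat function tested for a change beyond 1.5-fold. Against the peripheral locations the log2 fold change was -0.75 (adjusted p = 9.98e-08).

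VIM encodes vimentin, the intermediate filament of mesenchymal cells and of many epithelial lines in culture. Its log2 intensity was 6.97, 6.97 and 6.91 on the axis arrays, against 7.37, 7.22 and 7.25 on the control arrays. The axis arrays lay below all 15 others, by a gap of 0.20, and the 5 other group means spanned 0.044. VIM passed the adjusted p but not the fold threshold, with a log2 fold change of -0.33 against control (95% confidence interval -0.48 to -0.19, adjusted p = 0.00167 from limma) and of -0.31 against the peripheral locations (adjusted p = 0.000230).

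CDH1 encodes E-cadherin, the main adhesion molecule of adherens junctions in epithelium. It was at 3.93, 3.91 and 3.83 on the axis arrays, against 3.92, 4.18 and 4.19 on the control arrays. Control replicate 1 lay within the axis range, and the log2 fold change of -0.21 did not pass the test (95% confidence interval -0.45 to 0.038, adjusted p = 0.273). Against the 4 peripheral locations, whose arrays all lay above the axis ones, the log2 fold change was -0.40 (95% confidence interval -0.59 to -0.20, adjusted p = 0.00280), past the adjusted p and short of the fold threshold. Of all genes 7.70% had their axis arrays below all peripheral ones. The CDH1 axis mean of 3.89 lay close to the brightness mark of 3.74. The intestine arrays spread most, with a mean of 4.30 ± 0.31 (SD, n = 3).

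EPCAM encodes a surface glycoprotein of simple epithelia that takes part in cell-cell adhesion. It was at 5.15, 5.14 and 5.21 on the axis arrays, against 4.94, 5.30 and 4.90 on the control arrays. Control replicate 2 lay above every axis array. The log2 fold change was 0.12 against control (95% confidence interval -0.098 to 0.33, adjusted p = 0.543) and 0.21 against the peripheral locations (0.038 to 0.38, adjusted p = 0.0688).

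**Figure D2:**
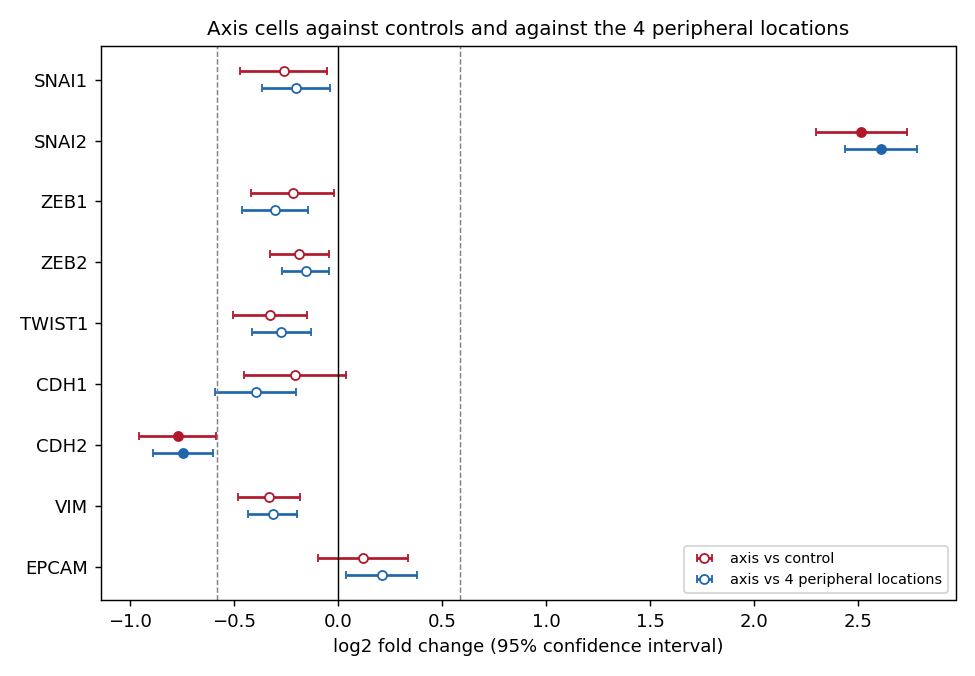
Log2 fold changes of the 9 genes in axis cells against controls (red) and against the mean of the 4 peripheral locations (blue), with 95% confidence intervals; filled points are called, and dashed lines mark a fold change of 1.5. SNAI2 lies at 2.51 and 2.61 and CDH2 at -0.77 and -0.75, and all other points lie inside the dashed lines.

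Set side by side, the 5 transcription factors had 1 gene higher and 0 lower in the axis and a median log2 fold change of -0.22, because SNAI2 alone lay above 0. The 4 junction and filament genes had 0 higher and 1 lower and a median of -0.27. Over all genes the median was 0.0070. With no fold threshold the factors had 1 lower gene (the dim TWIST1) and the junction and filament genes 2 (CDH2 and VIM). Of all genes 9.18% were lower at that rule. Against the peripheral locations the same 2 members were called, where 4.85% of all genes were called higher and 2.27% lower, and with no fold threshold 6 members were lower, ZEB1, ZEB2, TWIST1, CDH1, CDH2 and VIM, where 10.4% of all genes were. The adjusted p of ZEB2 lost this in several alternatives, while those of SNAI1 and EPCAM passed in some. Controls take no part in the difference of the second comparison, but they enter its estimate of the spread. Both comparisons use the same axis arrays.

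No member was called in the intestine, lung, thyroid or brain location, and in each of these 0 of 22392 genes were called (0%). At an unadjusted p under 0.05, 1 of the 36 differences of a member in a location passed, CDH1 in the brain, while the share of all genes that passed was 3.23% at the intestine, 3.63% at the lung, 4.02% at the thyroid and 3.58% at the brain location. The 36 log2 fold changes lay between -0.18 and 0.26. Their 95% confidence intervals all lay between -0.40 and 0.50, which leaves room for changes of up to 1.42-fold. For SNAI2 the 4 intervals lay between -0.36 and 0.17, and for CDH2 between -0.25 and 0.25.

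CDH1 had the largest of these 36 values. It was at 4.39, 4.24 and 4.43 on the brain arrays, against 3.92, 4.18 and 4.19 on the control arrays, so that all 3 brain arrays lay above all controls, as was so for 2.74% of all genes. The log2 fold change was 0.26 at the brain location (95% confidence interval 0.0099 to 0.50, adjusted p = 1.00 from limma), 0.20 at the intestine, 0.11 at the lung and 0.18 at the thyroid. All 4 share the same controls, of which replicate 1 was the lowest of the 15 arrays outside the axis. With the 4 locations together the log2 fold change was 0.19 (95% confidence interval -0.0063 to 0.38, adjusted p = 1.00).

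A joint test over the 6 groups (limma's moderated F test) passed for SNAI2 (adjusted p = 4.15e-12), CDH2 (adjusted p = 5.61e-06), VIM (adjusted p = 0.00828) and TWIST1 (adjusted p = 0.0434), where 17.1% of all genes passed. Among the 5 groups outside the axis it passed for 0 members and 0% of all genes. At an unadjusted p under 0.05, it passed there for 0 members, where 3.03% of all genes passed. The order of these 5 groups differed from gene to gene. Controls were highest for SNAI1 and SNAI2, the lung for ZEB1, the thyroid for ZEB2, the intestine for CDH2 and EPCAM and the brain for TWIST1, CDH1 and VIM. In 8 of the 9 genes every pair of neighbours among these 5 groups overlapped. The exception was CDH1 in the lung and control, whose nearest arrays were both at 4.19. Groups farther apart in the order could still be separate. For ZEB2 all thyroid arrays (4.44 to 4.48) lay above all intestine arrays (4.26 to 4.35). Its moderated F test over these 5 groups had an unadjusted p of 0.211.

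**Figure D3:**
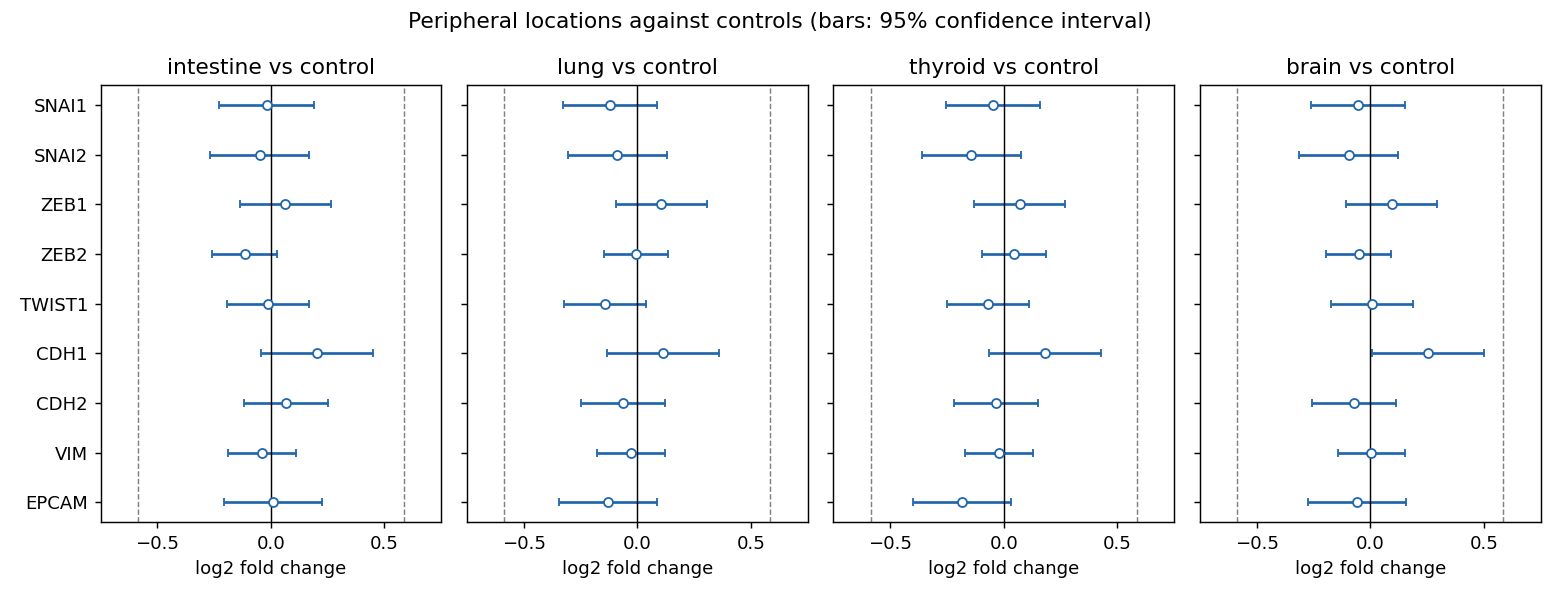
Log2 fold changes of the 9 genes in each peripheral location against controls, with 95% confidence intervals; dashed lines mark a fold change of 1.5. All 36 intervals lie inside the dashed lines, and the farthest bound is 0.50 for CDH1 in the brain.

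By the root mean square difference of the 5 log2 fold changes against control, the genes nearest to SNAI2 were TP53I3, a p53-induced oxidoreductase (difference 0.043, log2 fold change in the axis 2.51), and PSTPIP2 (0.060). The nearest to CDH2 were the long noncoding transcript LINC01139 (0.029) and CREB3L1, a membrane-bound transcription factor (0.032). Likeness here is over 6 group means that share the controls, and it is mostly likeness of the axis value.

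Among 19 other measured transcription factors linked to EMT, 1 was higher and 2 were lower in the axis (15.8% called, median log2 fold change -0.080). The other 16 were not called. Of all genes 4.39% were called higher and 2.60% lower. TWIST2, the paralogue of TWIST1, averaged 5.04 ± 0.18 in the axis and 6.11 ± 0.19 in controls (SD, n = 3 each) and was 2.10-fold lower (adjusted p = 4.42e-07 from limma). TCF4, a helix-loop-helix partner of TWIST proteins, was 1.79-fold lower, and FOSL1, a subunit of AP-1, rose 1.61-fold. Of 15 epithelial transcription and splicing factors 1 was higher and 0 lower (6.67% called, near the share of all genes, median 0.14). This was GRHL3, a Grainyhead factor of epidermal differentiation, at 5.72 ± 0.25 in the axis and 3.23 ± 0.16 in controls, where it was dim, a rise of at least 3.95-fold (adjusted p = 1.86e-09 from limma). Its relatives GRHL1 and GRHL2 and the splicing regulators ESRP1 and ESRP2 were not called.

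Of 19 corepressors and modifiers used by SNAI1 and ZEB1, 1 was higher and 1 lower (10.5% called, median -0.12). The shares of all genes called were 4.39% higher and 2.60% lower. FBXW7, the substrate receptor of a ubiquitin ligase known to act on Snail proteins, averaged 6.95 ± 0.068 in the axis and 4.70 ± 0.073 in controls and rose 4.75-fold (adjusted p = 7.56e-13). LOXL2, a lysyl oxidase reported to stabilise Snail, was 2.02-fold lower. Of 34 genes of pathways that induce EMT factors, inhibitors among them, 4 were higher and 8 lower (35.3% called, median -0.19). Among the lower ones were ID1 (1.90-fold) and ID3 (1.56-fold), which encode inhibitors of helix-loop-helix factors. The receptors TGFBR1 and NOTCH1 rose 3.13-fold and 2.53-fold and the NF-kappa B subunit NFKB1 1.94-fold, while the receptor PDGFRB was 4.24-fold, the ligand TGFB2 3.80-fold and the ligand WNT5A 3.04-fold lower.

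Other cadherins moved in both directions. Of 36 measured, 4 were higher and 1 lower (13.9% called), and the median was 0.017. Among all genes 4.39% were called higher and 2.60% lower. CDH10, a type II cadherin of the nervous system, averaged 7.03 ± 0.052 in the axis and 4.22 ± 0.12 in controls, a 7.01-fold rise (adjusted p = 1.91e-14 from limma), larger than that of SNAI2. The desmosomal cadherin DSG3 averaged 4.49 in the axis and 2.93 in controls, where it was dim, and rose at least 1.68-fold. Its relative DSC3 was called higher but was dim in both groups, at 3.36 in the axis and 2.69 in controls. FAT4, a giant cadherin of planar polarity, averaged 4.21 ± 0.14 in the axis and 6.30 ± 0.075 in controls and was 4.25-fold lower.

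Of 20 catenins and cadherin partners 3 were higher and 2 lower (25% called, median 0.022). The higher ones were NECTIN4 (1.97-fold), ARVCF of the p120 catenin family (1.87-fold) and the desmosomal plakophilin PKP1 (1.63-fold), and the lower ones were PKP2 (1.78-fold) and NECTIN3 (1.51-fold). Beta-catenin (CTNNB1) and alpha-catenin (CTNNA1) were not called. Of 26 tight junction and epithelial surface genes 2 were higher and 3 lower (19.2% called, median -0.058). Beside both lists, 4.39% of all genes were called higher and 2.60% lower. The claudin CLDN1 averaged 4.44 in the axis and 3.41 in controls, where it was dim, and rose at least 1.63-fold. The membrane protease ST14 rose 1.85-fold, and the mucin MUC1 (2.10-fold), the polarity scaffold PALS1 (2.00-fold) and CD24 (1.87-fold) were lower.

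Mesenchymal matrix and cytoskeleton genes were lower: 11 of 27 fell, 0 rose and the median log2 fold change was -0.48, beside 2.60% lower genes and a median of 0.0070 over all genes. COL1A1, a chain of type I collagen, averaged 6.87 ± 0.063 in the axis and 8.70 ± 0.091 in controls and was 3.54-fold lower (adjusted p = 6.05e-12 from limma). The gelatinase MMP2 was 3.53-fold lower and the collagen chain COL5A2 2.15-fold. COL1A1 also belongs to the stromal marker list, whose mean log2 value lay between 4.04 and 4.09 on the axis arrays and between 4.57 and 4.72 on the others. Of the 8 measured stromal markers 2, COL1A1 and PDGFRB, were called lower and 0 higher, and the median log2 fold change was -0.083. The stromal markers DCN, LUM, DPT and C7 were dim. Of 16 genes of intermediate filaments other than VIM and keratins, including the linker gene PLEC, 0 were called in either direction (median -0.045). With no fold threshold 4 were lower and 2 higher, where 9.18% of all genes were lower and 11.2% higher.

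**Figure D4:**
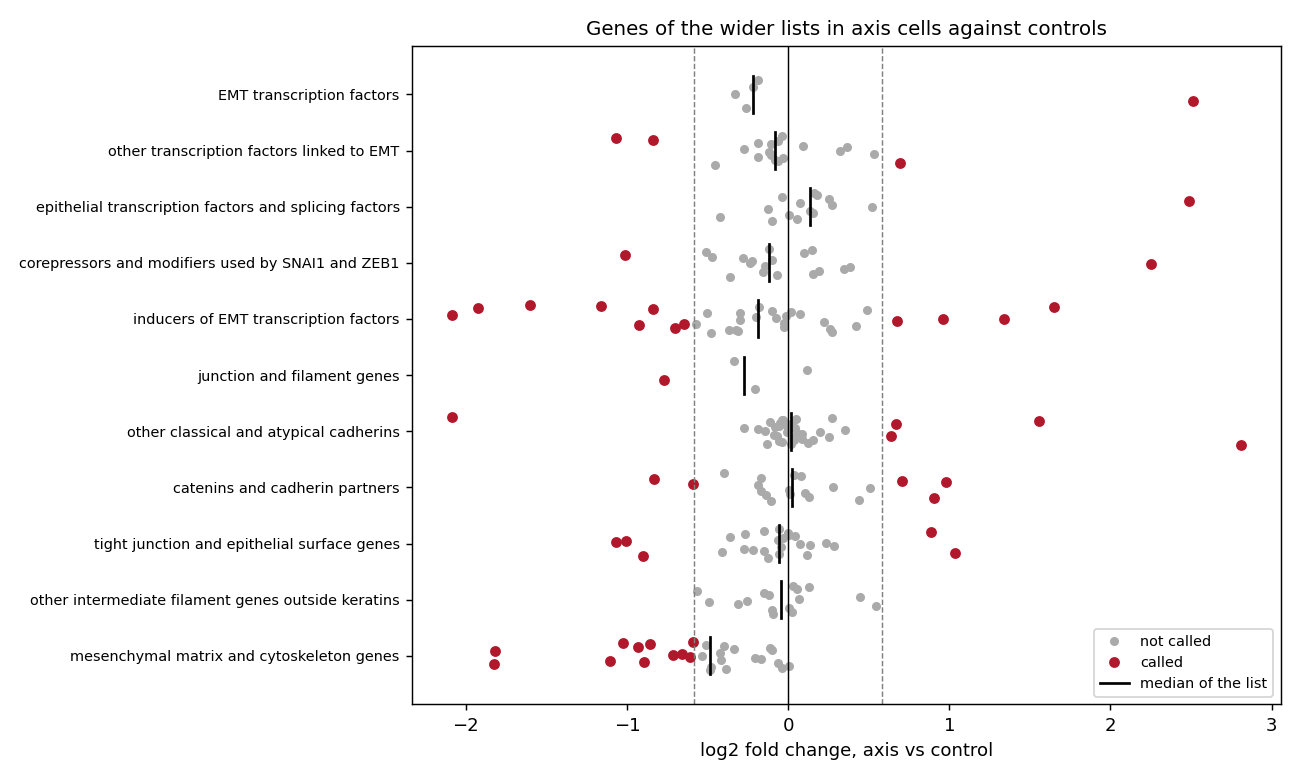
Log2 fold changes in axis cells against controls for the genes of each list, with called genes in red, other genes in grey and the median of the list as a black line; dashed lines mark a fold change of 1.5. The list of mesenchymal matrix and cytoskeleton genes has its median at -0.48 and 0 called genes on the right.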

How the data were processed

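Expression in PNT1A cells was measured in 6 groups of 3 arrays. The deposited values are log2 intensities from RMA, which the authors ran in the affy library (background correction, normalisation across arrays and summary of probes). RMA and affy are also named in the submitters' processing notes, with no version. The arrays' number, not a read depth, limits the precision: over all genes, comparisons with control had a median standard error of 0.10 on the log2 scale. Strips and scan dates are not given in the sources used here, and array batches were not tested.

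The annotation gives a single symbol for 23866 of the 53617 probe sets. Where a gene had several (630 genes), its brightest probe set by mean was used, which left 22392 genes. No filter on dim genes was applied. The sample labels gave each array's group and replicate number. One mean per group was fitted over all 18 arrays by lmFit and eBayes (limma 3.58.1 under R 4.3.3) with 12 residual degrees of freedom, and a gene was called where its Benjamini-Hochberg adjusted p was below 0.05 and it differed more than 1.5-fold. Intervals are 95% confidence intervals from this fit, for single genes. Each of the 5 locations was compared with control, as was the mean of the 4 peripheral ones, and the axis was compared with that mean.

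The 9 members and the gene lists were chosen with earlier results of these data known, so no test was run over a list. Named genes are the 9 members, up to 3 called genes per direction in each list by fold change, 2 nearest genes per called member, and CDKN1A and MDM2. KRT5, CDH3, ID1, ID3 and the genes named as not called or dim were chosen after their values were seen. The fit was tested on simulated data: in a simulated axis comparison over 22392 genes it called 60 of 60 genes with a 4-fold change, 70 of 70 with a 2-fold change, 60 of 70 with a 1.6-fold change and 0 of the unchanged genes. A simulated lung comparison gave the same counts except for 50 of 70 with a 1.6-fold change. Each simulation changed far fewer genes than the 1567 called in the real axis comparison. Alternatives covered the choice of probe set, filters on dim genes, normalization, array weights, the thresholds, the variance model, the arrays fitted, a block for replicates and leaving out each array.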

Additional observations from a re-analysis of the deposited data

How the results depend on the processing

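SNAI2 and CDH2 were the 2 members called in axis cells against controls and against the 4 peripheral locations under every alternative except the thresholds, and no log2 fold change of a member in these comparisons changed sign among 365 recomputed values. With no fold threshold, 4572 genes and 4 members (SNAI2, CDH2, TWIST1 and VIM) passed against controls and 5863 genes and 7 members against the peripheral locations. Tested against a fold change of 1.5 itself, 549 and 705 genes and 1 member, SNAI2, passed. Leaving out each array gave 1542 to 1644 genes and 2 members against controls, and 1522 to 1675 genes and 2 members against the peripheral locations. The log2 fold change against controls then lay between 2.43 and 2.57 for SNAI2 and between -0.84 and -0.67 for CDH2. The 4 peripheral locations gave 0 called genes, singly or together, under all alternatives.

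Replicate numbers are shared between groups, and little shared deviation was seen. Of 45 pairs with the same number, 8 had deviations from the group means that correlated above 0.1, and the median was -0.0015. These correlations cannot show whether arrays with the same number came from the same irradiation run. A replicate block gave 1565 genes and 2 members in axis cells against controls, changed no call of a member and left the adjusted p of ZEB2 against the peripheral locations at 0.0510. That p also exceeded 0.05 with a trended and robust variance (0.123), and without axis replicate 1 (0.0983), axis replicate 3 (0.210), thyroid replicate 2 (0.0514) or brain replicate 1 (0.0526). For SNAI1, ZEB1 and ZEB2 against controls, the lowest adjusted p under any alternative was 0.0326, 0.0428 and 0.0247, with fold changes under 1.5. Against the peripheral locations the adjusted p of SNAI1 lay between 0.00949 (quantile normalization) and 0.245, and without thyroid replicate 3 it was 0.025, while that of EPCAM lay between 0.0361 and 0.236. TWIST1, DSC3 and the miR-200 genes are dim, and a small change in them could not be told from background.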

Other observations

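Basal markers of prostate epithelium also differed in axis cells. Of 8 measured, 4 were lower and 1 higher than in controls, where 2.60% of all genes were lower and 4.39% higher (limma, thresholds as above). The median log2 fold change of the 8 markers was -0.37. With no fold threshold 4 were lower and 3 higher, where 9.18% of all genes were lower and 11.2% higher. The 2 added were the integrin ITGA6, 1.47-fold higher, and the laminin chain LAMB3, 1.43-fold higher (both named after their values were seen). The linker protein DST was 2.42-fold lower, the integrin ITGB4 1.98-fold, and the keratins KRT15 and KRT5 1.69-fold and 1.66-fold, while the nerve growth factor receptor NGFR was 1.64-fold higher. The mean log2 value of the 8 markers lay between 5.50 and 5.69 on the axis arrays and between 5.70 and 5.95 on the 15 others. Of 7 luminal markers 0 were called (median -0.22), and their mean lay between 4.14 and 4.32 on the axis arrays and between 4.29 and 4.54 on the others.

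P-cadherin (CDH3), the cadherin of basal epithelium and the fourth of the cadherins that rose, was 1.55-fold higher in axis cells (adjusted p = 2.97e-04 from limma), and was singled out after its value was seen. Of 6 measured leukocyte markers 1 was higher and 0 lower (median log2 fold change -0.070), where 4.39% of all genes were higher and 2.60% lower. The higher one, the integrin ITGAM, averaged 4.78 in the axis and 3.15 in controls, where it was dim, and was at least 2.06-fold higher. CD14 and CD68, the 2 above the brightness mark, were not called. Their log2 fold changes were -0.45 (adjusted p = 0.0174 from limma) and -0.29 (adjusted p = 0.0738). PTPRC, CD3E and LYZ were dim.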
